A study of Mus musculus with 6 samples.

Results

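ISG15 is a small protein with tandem ubiquitin-like domains that cells make in response to type I interferon and attach to other proteins. The 6 genes described here encode the modifier and the enzymes that attach and remove it: Isg15 itself, the activating enzyme (E1) Uba7, the conjugating enzyme (E2) Ube2l6, the ligases (E3) Herc6 and Trim25, and the protease Usp18. They were chosen by name for these roles, and 5 of the 6 are among the 19938 genes that the array measured through a probe set of their own. Attachment runs from E1 to E2 to E3, in the same order as for ubiquitin. In the mouse Herc6 is the main ligase for ISG15, a role that HERC5 has in human cells. Usp18 removes ISG15 from its targets and, apart from its protease activity, binds the receptor subunit Ifnar2 and dampens interferon signalling.

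Total RNA of 3 established mouse cell lines was measured on 6 Affymetrix whole-transcript arrays, 1 for each line stimulated with interferon-beta (IFN-β) for 4 h and 1 for each line left unstimulated. NIH3T3 and L929 are fibroblast lines, derived from embryos and from connective tissue in turn. RAW264.7 is named by the labels as a line of macrophages. The series set out to find genes whose transcription IFN-β regulates. No dose is given in the sources used here, and no line and condition had a replicate, so only the spread over the 3 lines gives an error for the IFN-β effect, and with 6 arrays the precision is low. All levels below are log2 values made with RMA, a method that corrects background, normalizes between arrays and summarises each probe set. A difference of 1 is thus 2-fold, and levels are compared between arrays, never between genes. Calls of which probe sets lay above background were not used here, so a fold over a low unstimulated level, as for Usp18 and Herc6 in the fibroblast lines and Isg15 in all 3 lines, is a lower bound if that probe set was at background.

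The line labels were set against markers. The median of 10 macrophage markers was 10.59 in unstimulated RAW264.7, against 4.13 in unstimulated NIH3T3 and 4.27 in unstimulated L929. The median of 10 fibroblast markers was 4.64, against 10.63 and 8.19 in the same order. Not all of these markers were higher in L929 than in RAW264.7. Thy1, Dcn and Lum were at 4.96, 3.41 and 2.27 in unstimulated L929, against 5.11, 3.47 and 2.46 in unstimulated RAW264.7. Of the 20 markers 0 passed the test for an effect of IFN-β across lines (limma, adjusted p under 0.05), and 1 had an unadjusted p under 0.05. The median log2 change over all genes was 0.17 for NIH3T3 cells, -0.05 for L929 cells and -0.03 for RAW264.7 cells, and the median of all probe sets, on which arrays are centred below, was 0.28 higher with IFN-β in NIH3T3. This shift was uneven over levels. In NIH3T3 the lower quartile over genes was 4.10 with IFN-β and 3.79 without it, and the upper quartile was 7.39 and 7.32. A change in NIH3T3 can include part of the shift, and how much was not tested for each gene.

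Each gene had 1 probe set. Those of Uba7, Ube2l6, Herc6, Trim25 and Usp18 (10588786, 10473356, 10538590, 10380260 and 10541307) name that gene alone. The probe set for Isg15 (10451287) also names Gm9706, which RefSeq lists as a pseudogene on chromosome 17, whereas Isg15 lies on chromosome 4. Signal from the pair cannot be told apart, and the values below are those of that probe set. It was left out of the test over 19938 genes and given an adjusted p from a fit with it added.

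Interferon-stimulated genes are classically switched on by the factor ISGF3, which holds Stat2 and Irf9 and binds a promoter element called ISRE. The start regions of 5 of the 6 genes, all but Usp18, were in the RefSeq table used here (build GRCm38.p6), each 300 bases long, from 250 before the start to 50 after it. Those of the modifier, the E1 and the ligase Trim25 are shown because they hold matches near the start, 5′ to 3′ on the gene's strand. Capitals mark stretches that match GAAA, 2 bases of any kind and GAAA again, the core of the ISRE, on either strand with at most 1 of its 8 fixed letters changed, overlapping matches being merged. The windows lie at chr4:156200769-156201068 (minus strand) for Isg15, chr9:107975317-107975616 (plus strand) for Uba7 and chr11:88999153-88999452 (plus strand) for Trim25.
Isg15: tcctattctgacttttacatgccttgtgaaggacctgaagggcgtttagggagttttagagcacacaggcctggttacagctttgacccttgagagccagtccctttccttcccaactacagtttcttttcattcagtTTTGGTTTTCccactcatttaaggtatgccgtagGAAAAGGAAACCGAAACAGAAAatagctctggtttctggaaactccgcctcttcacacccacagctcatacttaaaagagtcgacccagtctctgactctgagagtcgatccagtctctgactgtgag
Uba7: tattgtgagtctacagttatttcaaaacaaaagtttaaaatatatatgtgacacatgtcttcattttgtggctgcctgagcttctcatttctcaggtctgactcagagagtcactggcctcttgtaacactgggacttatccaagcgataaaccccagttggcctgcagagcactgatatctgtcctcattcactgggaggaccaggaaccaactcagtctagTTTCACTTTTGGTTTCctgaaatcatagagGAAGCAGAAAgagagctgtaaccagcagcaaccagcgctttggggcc
Trim25: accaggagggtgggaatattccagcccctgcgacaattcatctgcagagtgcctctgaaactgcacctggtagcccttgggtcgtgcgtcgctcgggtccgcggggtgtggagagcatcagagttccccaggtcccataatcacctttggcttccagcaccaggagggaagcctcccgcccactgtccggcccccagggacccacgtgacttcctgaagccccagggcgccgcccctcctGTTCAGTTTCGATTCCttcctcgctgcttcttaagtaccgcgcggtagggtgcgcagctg

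The Isg15 window held 3 exact matches in tandem, which overlap each other, starting 78, 72 and 66 bases before the start of the gene. None of the other 4 windows held an exact match, and 0 of 5 held the palindrome of the gamma-activated site, TTC, 3 bases of any kind and GAA. With 1 mismatch allowed, a looser search chosen after the exact matches were seen, Isg15 had another match 112 bases before the start, and Uba7 had overlapping matches beginning 27 and 21 bases before the start and another beginning at base 4 of the gene. Trim25 had overlapping matches at 10 and 4 bases before the start. Herc6 had a match at 197 bases before the start and Ube2l6 had none. Among all 32851 windows of the table, 3.44% held an exact match and 35.4% a match with at most 1 mismatch, so the looser match is common. In the 155 windows of genes that rose across the lines the shares were 30.3% and 60.6%. The palindrome was in 8.30% of all windows and 12.3% of those of genes that rose. These are matches of letters, and binding was not measured.

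IFN-β raised the modifier, the E1, the E2, Herc6 and Usp18 across the 3 lines, and all 6 genes had a higher level with IFN-β than without it in each line. Among relatives described below, 5 of 47 other USP proteases and 0 of 31 other E2 enzymes were higher in all 3 lines. The share over all genes was not counted. The median change over all genes was 0.17 in NIH3T3, so a higher level was common there. It was -0.05 in L929 and -0.03 in RAW264.7. In limma with cell line as a block, 4 of the 5 genes in the test over all genes passed an adjusted p under 0.05, and Isg15 passed in the fit with its probe set added. Trim25 narrowly missed. Over all genes, 0.732% passed as higher. The median of the 6 mean log2 changes was 3.24, against 0.03 over all genes. The mean log2 changes ran from 1.20 for Uba7 to 5.56 for Usp18.

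**Figure D1:**
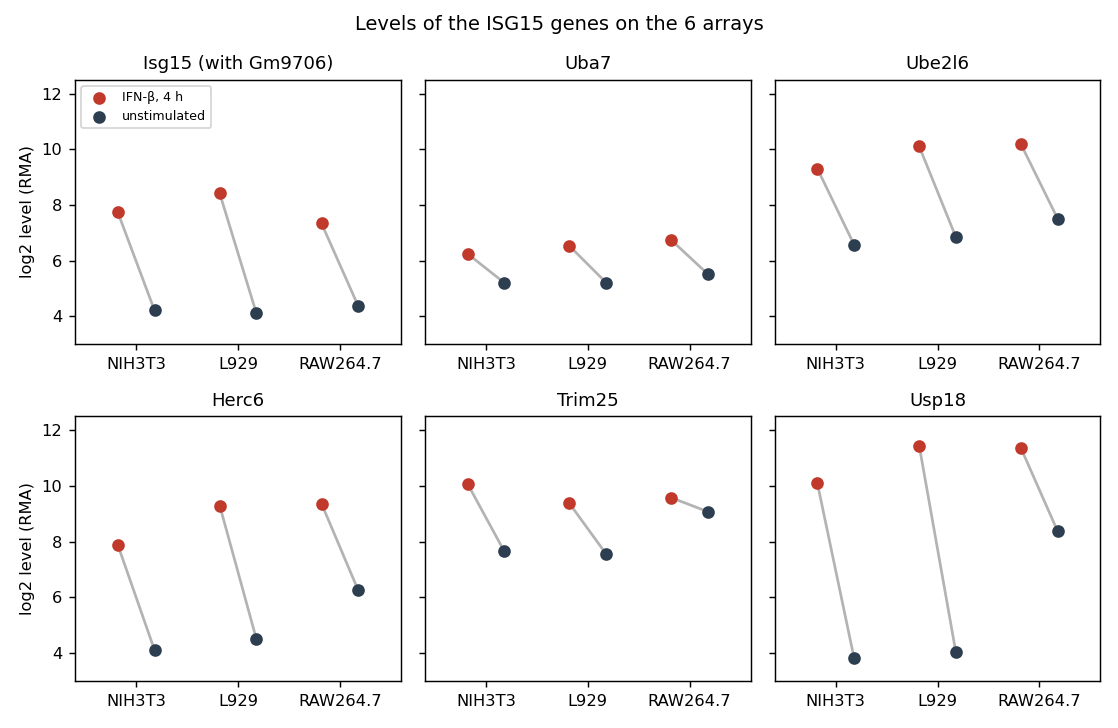
Log2 level of each ISG15 gene on the 6 arrays, in 1 panel per gene, with the IFN-β array left of the unstimulated array of the same line and a line joining the pair. Every IFN-β point is above its unstimulated partner, and the unstimulated points of all 6 genes are highest in RAW264.7.

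The modifier rose to levels well apart from the unstimulated ones in every line. With IFN-β the Isg15 probe set had log2 levels of 7.73 in NIH3T3 cells, 8.42 in L929 cells and 7.34 in RAW264.7 cells, against 4.21, 4.11 and 4.37 in the unstimulated arrays of the same lines. The unstimulated levels lay within 0.26 of each other, and the stimulated levels did not overlap them. Such a lack of overlap held for each of the 6 genes, and its share over all genes was not counted. The change was 11.5-fold in NIH3T3 cells, 19.8-fold in L929 cells and 7.81-fold in RAW264.7 cells. The mean log2 change was 3.60 ± 0.24 (limma SE, n = 3 lines), with an adjusted p of 6.92e-05 and an SD between lines of 0.67. In each line it ranked among the 48 largest changes of all genes, at position 39 in NIH3T3 cells, 48 in L929 cells and 41 in RAW264.7 cells. L929 ended highest and RAW264.7 lowest.

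Uba7, which activates ISG15 for transfer, had the smallest mean change of the 6 genes and the smallest spread between lines. Its levels with IFN-β were 6.25 in NIH3T3 cells, 6.53 in L929 cells and 6.74 in RAW264.7 cells, against 5.21, 5.21 and 5.52 unstimulated. All stimulated levels lay above all unstimulated ones, as for the other members. Folds were 2.06, 2.49 and 2.34 in the same order, and the mean log2 change was 1.20 ± 0.16 (limma SE, n = 3 lines, adjusted p = 0.00548) with an SD between lines of 0.14. It alone of the 6 genes reached 3-fold in no line. In NIH3T3 its change was 0.77 with each array centred on its median, short of 2-fold.

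Ube2l6, the E2 that takes ISG15 from Uba7, rose across the lines, with a spread of 0.59 between its largest and smallest change. Its levels with IFN-β were 9.31 in NIH3T3 cells, 10.11 in L929 cells and 10.18 in RAW264.7 cells, against 6.58, 6.85 and 7.51 unstimulated. Folds were 6.63, 9.57 and 6.38. The mean log2 change was 2.89 ± 0.18 (limma SE, n = 3 lines, adjusted p = 5.74e-05), and the SD between lines, 0.32, was small beside it. RAW264.7 had the highest level of the 3 lines both before and after IFN-β.

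Herc6, the ligase, had a larger fold change than the E2 in every line. Its levels with IFN-β were 7.88 in NIH3T3 cells, 9.30 in L929 cells and 9.37 in RAW264.7 cells, against 4.11, 4.51 and 6.25 unstimulated. The unstimulated level of RAW264.7 stood 1.95 above the mean of the fibroblast lines. Folds were 13.6 in NIH3T3 cells, 27.8 in L929 cells and 8.64 in RAW264.7 cells, where Herc6 had the largest change of the 6 genes. The mean log2 change was 3.89 ± 0.27 (limma SE, n = 3 lines, adjusted p = 0.000102), and the SD between lines was 0.85.

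Trim25, a ligase for ISG15 that is also known for attaching ubiquitin in the RIG-I pathway of viral RNA sensing, was the gene whose call depended on the line. Its levels with IFN-β were 10.08 in NIH3T3 cells, 9.37 in L929 cells and 9.58 in RAW264.7 cells, against 7.65, 7.56 and 9.08 unstimulated. In RAW264.7 the unstimulated level was already within 0.50 of the stimulated one and 1.47 above the unstimulated mean of the fibroblast lines. Folds were 5.36 in NIH3T3 cells, 3.52 in L929 cells and 1.42 in RAW264.7 cells, at ranks 56, 151 and 732 among all genes. Over the lines the mean log2 change was 1.58 ± 0.30 (limma SE, n = 3 lines), with an SD between lines of 0.98 and an adjusted p of 0.0505. Without RAW264.7 the mean was 2.12 with an adjusted p of 2.44e-11 in limma, from a fit with 1 residual degree of freedom in which the SE of 0.29 was pooled over all genes and is not Trim25's own spread, whereas without L929 it was 1.46 (adjusted p = 0.215) and without NIH3T3 it was 1.16 (adjusted p = 0.280). Trim25 was also the only gene of the 6 whose stimulated level was highest in NIH3T3.

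Usp18, the protease that takes ISG15 off again, had the largest change of the 6 genes in both fibroblast lines. Its levels with IFN-β were 10.10 in NIH3T3 cells, 11.45 in L929 cells and 11.36 in RAW264.7 cells, against 3.83, 4.03 and 8.37 unstimulated. The unstimulated macrophage line thus stood 4.44 above the mean of the unstimulated fibroblast lines, while with IFN-β the gap was 0.58. Folds were 77.2 in NIH3T3 cells, 171.4 in L929 cells and 7.91 in RAW264.7 cells, at ranks 3, 7 and 39 among all genes. The mean log2 change was 5.56 ± 0.62 (limma SE, n = 3 lines, adjusted p = 0.00164). The SD between lines was 2.30, the widest of the 6 genes, and limma's SE draws on the spread of all genes. The mean was 6.85 without RAW264.7, 5.20 without NIH3T3 and 4.63 without L929. With variances estimated robustly and with a trend Usp18 lost its call (adjusted p = 0.824), and over the 12 settings tried its adjusted p ran from 6.36e-122, without RAW264.7, to 0.99996, without the cell line in the model, the first with the same pooled SE of 0.29.

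**Figure D2:**
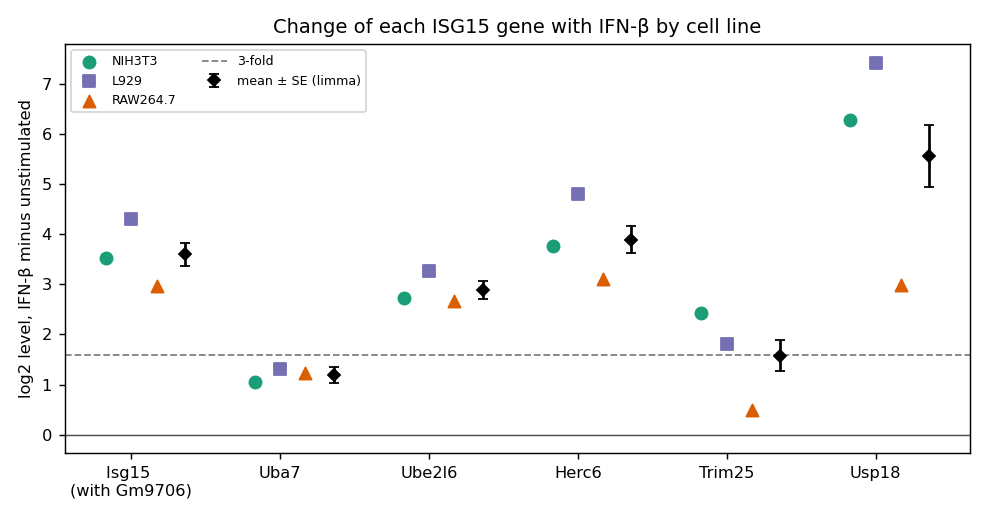
Log2 change with IFN-β (IFN-β minus unstimulated) of each ISG15 gene in NIH3T3 (circles), L929 (squares) and RAW264.7 (triangles), with the mean over the lines and limma's SE in black and a dashed line at 3-fold. Usp18 spreads from 2.98 in RAW264.7 to 7.42 in L929, while Uba7 stays between 1.04 and 1.32.

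Within a line, the difference of 2 arrays was counted at the 3-fold rule of the series, with no test. In NIH3T3 5 of the 6 genes were at least 3-fold higher, as were 0.476% of all genes. In L929 the count was 5, beside 0.893% of all genes, and in RAW264.7 it was 4, beside 0.617%. The order of the 6 changes was the same in NIH3T3 and L929: Usp18, Herc6, Isg15, Ube2l6, Trim25 and Uba7. Usp18 led Herc6 by 2.50 on the log2 scale in NIH3T3 and by 2.63 in L929. In RAW264.7 Herc6, Usp18 and Isg15 changed by 3.11, 2.98 and 2.96, so that the changes of the protease and the modifier lay 0.02 apart. The last places in RAW264.7 were those of Uba7 and Trim25.

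L929 had the largest change for 5 of the 6 genes, Trim25 being the exception, and RAW264.7 the smallest for 5, all but Uba7. Among the 146 genes that rose across the lines, L929 had the largest change for 109 (74.7%, against 24.2% of all genes) and RAW264.7 the smallest for 76 (52.1%, against 35.1% of all genes). All 6 ISG15 genes had their highest unstimulated level in RAW264.7. That was so for 105 of the 146 genes that rose (71.9%) and for 35.3% of all genes. The lead was small for Isg15 (4.37 against 4.21 in NIH3T3) and Uba7 (5.52 against 5.21 in L929). With 1 array per line it was not tested. With IFN-β the highest level was in RAW264.7 for 3 genes, in L929 for 2 and in NIH3T3 for 1. The range of levels across the lines was narrower with IFN-β than without it for Usp18 (1.35 against 4.54), Herc6 (1.49 against 2.15), Trim25 (0.70 against 1.52) and Ube2l6 (0.87 against 0.93). It was wider for Isg15 (1.08 against 0.26) and Uba7 (0.49 against 0.31). Of the 146 genes that rose, 73 had a narrower range with IFN-β, as did 38.6% of all genes.

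Differences between lines in the response were tested with an interaction term. The response of RAW264.7 was set against the mean of the fibroblast lines, a fit with 1 residual degree of freedom in which limma gave every gene of the test the same SE of 0.49. It therefore assumes that RAW264.7, with its pair of arrays, varies like the fibroblast lines. Usp18 changed by 2.98 in RAW264.7 against a mean of 6.85 in the fibroblast lines, a difference of -3.86 ± 0.49 (SE, 95% interval -4.83 to -2.89), with an adjusted p of 5.50e-11. Over all genes 0.155% had a smaller response in RAW264.7 at this threshold. The other 5 genes were not called. Trim25 differed by -1.62 (interval -2.58 to -0.65, adjusted p = 0.313), Herc6 by -1.17 (interval -2.14 to -0.20) and Isg15 by -0.95 (interval -1.92 to 0.02). Ube2l6 differed by -0.32 (interval -1.29 to 0.65) and Uba7 by 0.05 (interval -0.92 to 1.01). These intervals are not adjusted for the number of genes. An unadjusted p under 0.05 was found for 3 of the 6 genes.

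The response of L929 was set against the mean of NIH3T3 and RAW264.7 with the same kind of term. This contrast was chosen knowing from earlier results of these data that many shared genes changed most in L929. The direction of the differences is therefore no independent finding. All 6 differences were positive, from 0.18 for Uba7 to 2.79 for Usp18, and 0 of 6 passed in limma, while 3 had an unadjusted p under 0.05. Usp18 changed by 7.42 in L929 against 4.63 in the others (difference 2.79 ± 0.95, interval 0.69 to 4.90, adjusted p = 0.733), and Herc6 by 4.80 against 3.44 (difference 1.35 ± 0.39, interval 0.50 to 2.21, adjusted p = 0.623). Over all genes 0.0552% had a larger response in L929 at this threshold. Herc6 passed with robust variances and a trend (adjusted p = 0.0234) and Usp18 with each array centred on its median (adjusted p = 0.0464), and over the 5 settings tried the adjusted p reached 0.653 for Herc6 and 0.947 for Usp18. Unlike the contrast of RAW264.7, this fit gave the genes SEs of their own, from 0.34 for Ube2l6 to 0.95 for Usp18. Each SE drew on the difference of the changes in RAW264.7 and NIH3T3. For Usp18 that difference was -3.29 (RAW264.7 minus NIH3T3), so the smaller response of RAW264.7 widened its interval here. Both contrasts use the same 6 arrays.

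**Figure D3:**
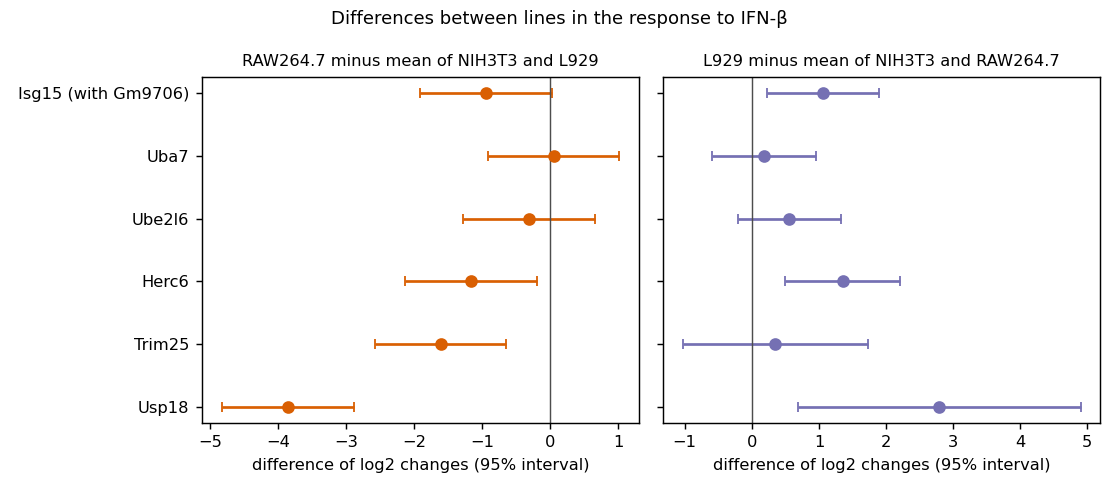
Difference in the log2 change with IFN-β for each ISG15 gene, RAW264.7 minus the mean of NIH3T3 and L929 on the left and L929 minus the mean of NIH3T3 and RAW264.7 on the right, with 95% intervals from limma not adjusted for the number of genes. On the left Usp18, at -3.86, lies farthest from 0.

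The relatives of the 6 genes in the ubiquitin system were described next, through 98 of 109 listed genes, and 11, among them the ubiquitin E1 Uba1, were not analysed here. Of the 98, 1 rose and 0 fell in limma, and their median mean log2 change was -0.05. Over all genes 0.732% rose. Among 9 other ubiquitin-like modifiers 0 passed, and 0 had an unadjusted p under 0.05. Ubd, which encodes the interferon-gamma-inducible modifier FAT10, had the largest mean change of these at 0.26. Among 6 other E1 enzymes 0 passed and 0 had an unadjusted p under 0.05, with Mocs3 at 0.26 the farthest from 0. Of 31 other E2 enzymes 0 passed and 1, Ube2q2 at -0.56, had an unadjusted p under 0.05.

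Ube2l3, the closest relative of Ube2l6 and an E2 for ubiquitin, had levels of 10.90 in NIH3T3 cells, 11.08 in L929 cells and 11.02 in RAW264.7 cells with IFN-β, against 11.38, 10.53 and 11.23 unstimulated. Its changes thus went in both directions, with a mean of -0.05 (adjusted p = 0.986). The other HERC ligases and Arih1 had mean changes from -0.28 for Herc2 to 0.24 for Herc3, with Herc4 at -0.25, and 0 of 5 passed with 0 at an unadjusted p under 0.05. Of 47 other USP proteases 1 rose and 5 had an unadjusted p under 0.05. The one that rose was Usp25, a deubiquitinase, with levels of 8.65 in NIH3T3 cells, 9.37 in L929 cells and 10.16 in RAW264.7 cells with IFN-β, against 7.49, 7.34 and 8.87 unstimulated. Its mean log2 change was 1.49 ± 0.20 (limma SE, n = 3 lines, adjusted p = 0.00520). Usp5, a protease for free ubiquitin chains, had a mean change of -0.30 (adjusted p = 0.964).

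**Figure D4:**
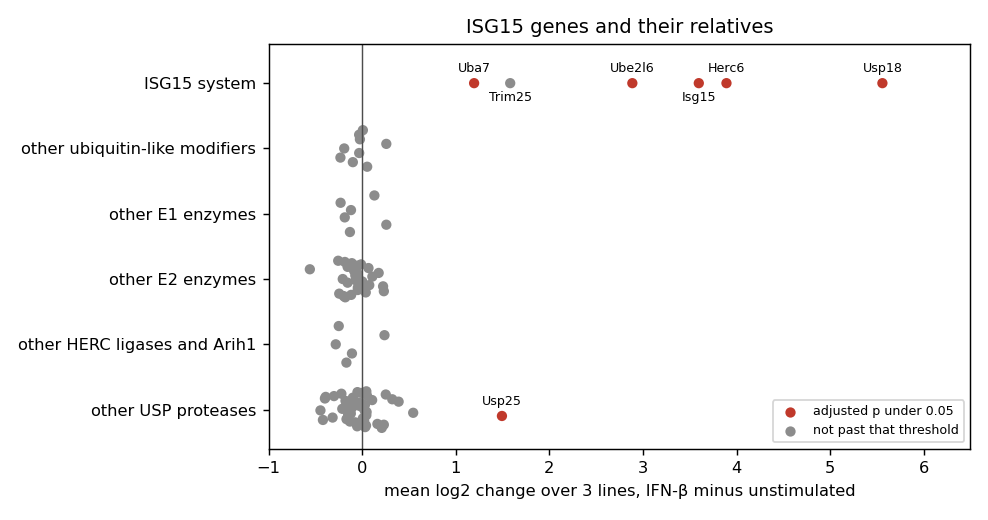
Mean log2 change over the 3 lines (IFN-β minus unstimulated) of the ISG15 genes and of 98 relatives, 1 point per gene in a row per group, with genes past an adjusted p of 0.05 in red and the rest in grey. The relatives gather around 0 except Usp25 at 1.49, whereas the ISG15 genes run from 1.20 to 5.56.

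The receptor and signalling genes around Usp18 were described by the same fit. Of 7 measured genes 2 rose, beside 0.732% of all genes. Stat2, which brings Usp18 to the receptor, rose by a mean log2 change of 3.13 ± 0.21 (limma SE, n = 3 lines, adjusted p = 7.67e-05), and Irf9, the DNA-binding part of ISGF3, by 2.22 ± 0.39 (adjusted p = 0.0293). Irf9 had levels of 7.49 in NIH3T3 cells, 8.40 in L929 cells and 8.26 in RAW264.7 cells with IFN-β. Its unstimulated levels were 4.74, 5.17 and 7.58 in the same order, highest in RAW264.7. Stat2 instead had its lowest unstimulated level in RAW264.7, at 5.96 against 6.32 in NIH3T3 and 6.15 in L929. The change of Stat2 was still smallest in RAW264.7, at 2.55 against 3.39 in NIH3T3 and 3.45 in L929. Ifnar2, the receptor subunit that Usp18 binds, had a mean change of 0.07 (adjusted p = 0.974), with changes from -0.07 in NIH3T3 to 0.32 in L929. Ifnar1, Jak1, Tyk2 and Skp2, a ubiquitin ligase subunit reported to act on Usp18, had mean changes between -0.19 and 0.18.

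Among 12 genes whose proteins have been reported to carry ISG15, 5 rose across the lines, beside 0.732% of all genes. Whether carrying ISG15 goes with a rise was not tested. The 5 were Ifit1 (mean log2 change 6.33), Mx1 (4.69), Ddx58, which encodes RIG-I (3.97), the RNA-activated kinase gene Eif2ak2 (2.49) and the nuclear body gene Pml (1.73). The median of the 12 was 0.20, and the remaining 7, among them Jak1, Irf3 and Plcg1, did not pass. Itgal and Itgb2, whose products form the integrin LFA-1 that extracellular ISG15 binds, had mean changes of 0.12 and 0.02, and 0 of these 2 passed, with 0 at an unadjusted p under 0.05. Both were higher in RAW264.7, where Itgal was at 7.52 with IFN-β and 7.06 without it, than in the fibroblast lines, where it lay between 4.57 and 5.08.

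The nearest measured genes on each side of the 6 genes, 11 in all by RefSeq order, were compared with them. Isg15 had a measured neighbour only before it in that order. Of the 11, 1 rose, beside 0.732% of all genes. It was Ppm1k, next to Herc6, which encodes a mitochondrial phosphatase of branched-chain amino acid breakdown. Ppm1k changed by 1.20 in NIH3T3 cells, 2.29 in L929 cells and 1.40 in RAW264.7 cells, with a mean of 1.63 (limma adjusted p = 0.00521). Pyurf, on the other side of Herc6, had a mean change of 0.01. The remaining neighbours had mean changes from -0.28 for Slc6a13, next to Usp18, to 0.71 for Agrn, next to Isg15. Agrn and the Uba7 neighbour Inka1 changed by 1.68 and 1.33 in NIH3T3 and by less than 0.6 in size in the other lines.

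**Figure D5:**
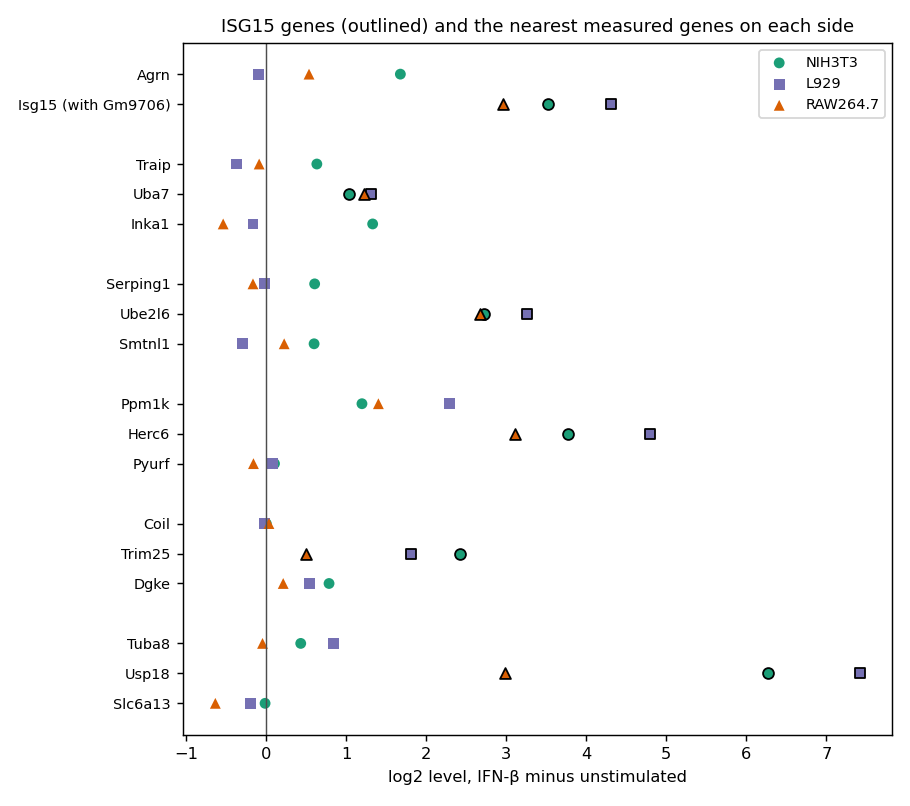
Log2 change with IFN-β (IFN-β minus unstimulated) of each ISG15 gene (outlined markers) and of the nearest measured genes on either side in chromosome order, by cell line. Ppm1k, beside Herc6, is the neighbour with changes above 1 in all 3 lines. Isg15 has a measured neighbour only before it in that order.

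For each of the 6 genes the 3 genes with the most alike pattern were found as those with the smallest Euclidean distance between log2 levels on the 6 arrays, each gene centred on its own mean. Closest to Isg15 were Trim21 (distance 0.81), Zbp1 and Stat2, and closest to Uba7 were Gdap10 (0.35), Rnf19b and Bmp10. Ube2l6 was closest to Dhx58 (0.71), Tap1 and Eif2ak2, and Herc6 to Ddx60 (0.80), Xaf1 and Dtx3l. Trim25 was closest to Tcirg1 (0.65), Adar and Mitd1. Usp18 was closest to Parp14 (1.59), Rtp4 and Phf11d, each of which also began higher in RAW264.7 than in either fibroblast line. The unstimulated levels enter the distance, so a like start follows from the way these genes were found. Such a start was also common, in 71.9% of the genes that rose across the lines. Rtp4 was at 9.71 in unstimulated RAW264.7, against 4.99 in NIH3T3 and 4.01 in L929. These 6 arrays share the 3 lines and the treatment, so a small distance here describes the pattern over 6 values.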

How the data were processed

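The authors deposited RMA values, per the submitters' processing notes, and these fit a log2 scale, since they run from 0.88 to 14.74. RMA's version and settings, and the dose of IFN-β, are unknown here. Per the labels' protocols, RNA was labelled with Affymetrix's whole-transcript kit.

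The array annotation gave 1 gene for 21789 of 35557 probe sets. The brightest probe set by mean level stood for a gene with several, which left 19938 genes, unfiltered. limma 3.58.1 (R 4.3.3) was fitted with treatment and, as a block, cell line, which pairs the arrays. Empirical Bayes was used, with Benjamini-Hochberg adjustment over all genes. Differences between lines were interaction terms. The fits were also run on simulated data in which a gene had the same variance in every line. That cannot test whether RAW264.7 varies like the fibroblast lines. Within a line there was no test. Alternatives covered the probe set per gene, a level filter, the scaling, the variance model, the block, each line left out and the thresholds. Genes named were all 6 members, the genes called in each list (or its largest change), close relatives, chromosome neighbours and the most alike genes. The members, the lists and the contrast of L929 with the other lines were chosen with earlier results of these data known. A gene listed at first is not reported here and was dropped from its lists, which moved no value. Tables and plots were made in Python 3.11.15 (numpy 2.4.6, pandas 2.3.3, matplotlib 3.10.9).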

Additional observations from a re-analysis of the deposited data

Results flagged for a closer look

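The response of Usp18 differed between RAW264.7 and the fibroblast lines in a test that assumes RAW264.7, with 1 pair of arrays, varies like them. Its log2 change was 2.98 in RAW264.7 against a mean of 6.85 in the fibroblast lines, a difference of -3.86 in limma's interaction term, and the difference stayed between -3.86 and -3.67 over the 5 other settings, all of which called it (adjusted p from 2.05e-11 to 0.0170). The fit had 1 residual degree of freedom and an SE of 0.49 pooled over all genes, while the changes of Usp18 in the fibroblast lines lay 1.15 apart. Its level in RAW264.7 was 11.36 with IFN-β and 8.37 without it. The part of the high unstimulated level in the difference was not tested.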

How the results depend on the processing

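No result named above for the 6 genes changed direction under any setting tried. Of the 5 genes in the test across lines 4 passed. The count was 1 with all probe sets tested together, where 14 probe sets passed in place of 146 genes, and 0 with no replicate block, where 2 genes passed and Isg15 had an adjusted p of 0.0769. It stayed between 3 and 5 under the other settings, and between 4 and 5 with each line left out in turn, while the genes passing over the whole array ran from 116 to 223 with a line left out. Trim25 had a limma adjusted p under 0.05 in 4 of the 12 settings. These were the mean over probe sets (0.0479), median centring (0.0124), a variance trend (0.0255) and RAW264.7 left out. It was 0.121 with quantile normalization, 0.449 with robust variances and a trend and 0.501 with all probe sets tested together. Over the 12 settings it ran from 2.44e-11 to 0.99996. For RAW264.7 against the fibroblast lines 47 genes passed, and 10 after quantile normalization. For L929 against the other lines 14 genes passed, against 9 with the level filter, 85 with median centring, 32 with quantile normalization and 223 with robust variances and a trend, and of the 5 ISG15 genes 0 passed, against 1 with median centring and 1 with robust variances and a trend. The level filter tests fewer genes; for the other changes the cause was not tested. The counts at 3-fold within a line kept within 1.5 times under every setting. Of 65 values for single genes that were called at first, 56 stayed called and 9 did not, and of 67 that were not called 7 passed. Of 54 changes within a line, which had no test, 2 moved by more than the SD between lines, both of them Uba7 in NIH3T3.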
